A study of Mus musculus with 12 samples.

Results

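Deletion of Pdpk1 in cytotoxic T lymphocytes (CTL) was read on 6 of the 12 arrays of the series, the 3 arrays titled PDK1 null CTL and the 3 titled Tamoxifen Cre Control CTL, chosen by these titles. The control mice carried C57BL/6GT(ROSA)26tm9(creEsr1)Arte (TamoxCre), a tamoxifen-inducible Cre expressed from the ROSA26 locus, with wild-type Pdpk1. The Pdpk1-null CTL came from mice with the same transgene and loxP-flanked Pdpk1 alleles (PDK1fl/fl). Splenic T cells of 3 mice per genotype were activated for 48 hr in 20 ng/ml IL-2 by antibody 2C11 against CD3 at 0.5 μg/ml and then grown in IL-2 for 5 days. Both groups received 0.6 μM 4-hydroxytamoxifen (4OHT), which switches the Cre on, during the last 72 hr. The recombinase and the drug are therefore shared by the groups. Cre from this locus may act in other cell types of either culture as well, which was not measured.

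PDK1, the product of Pdpk1, is a kinase that phosphorylates the activation loop of AGC family kinases, among them Akt, S6K, RSK, SGK and several isoforms of protein kinase C. In CTL the cytokine IL-2 acts partly through this kinase and sustains cell growth, nutrient uptake and effector function. Akt also holds the forkhead factors Foxo1 and Foxo3 outside the nucleus, where they would otherwise act on genes of quiescence, survival and lymph node homing.

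The deposited values are log2 signals from robust multichip averaging (RMA), so a difference of 1 is a change of 2-fold. A gene was called changed when the adjusted p of limma was under 0.05 and its size was at least 1.5-fold. Only such genes are said to have risen or fallen. Of 18193 genes measured, 246 changed (1.35%), with 182 higher (1.00%) and 64 lower (0.352%) in Pdpk1-null CTL. In all 246 the 3 arrays of one group lay wholly above the 3 of the other. Such separation came with every call, and its share over all genes is not given. Here and below it describes the values and adds no support to a call. The rises had a median log2 fold change of 0.83 and the falls one of -0.82, and 58 rises and 18 falls were at least 2-fold. Among the 11969 genes with a signal above background in a group, 91.2% had a 95% interval that lay within 1.5-fold in either direction, and the median log2 fold change was -0.01. Background was a log2 signal of 4.45, set by receptors of smell and pheromones. The median signal of the 6 arrays was 4.602 to 4.6245, and arrays of one group correlated at 0.996 to 0.997 across probe sets. In RNA of whole cultures, fewer cells of a type and less RNA per cell cannot be told apart.

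The count of 246 varied when single arrays were left out. Without Cre control replicate 1, 2 or 3 it was 137, 97 or 105, without Pdpk1-null replicate 1 or 3 it was 130 or 102, and without Pdpk1-null replicate 2 it was 329. Pdpk1-null replicate 2 also strayed furthest from its group mean, with a standard deviation of 0.130 across probe sets above background against 0.0931 to 0.117 on the others. Calls of 69 genes, 48 higher and 21 lower, held whichever array was left out. Where a gene below lost its call in this way, the highest adjusted p and the array whose removal gave it are stated. Such a gene may have lost its call without other arrays too. Some, Cxcr3, Adamts6 and Pde8a among them, lost it whichever array was left out.

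**Figure D1:**
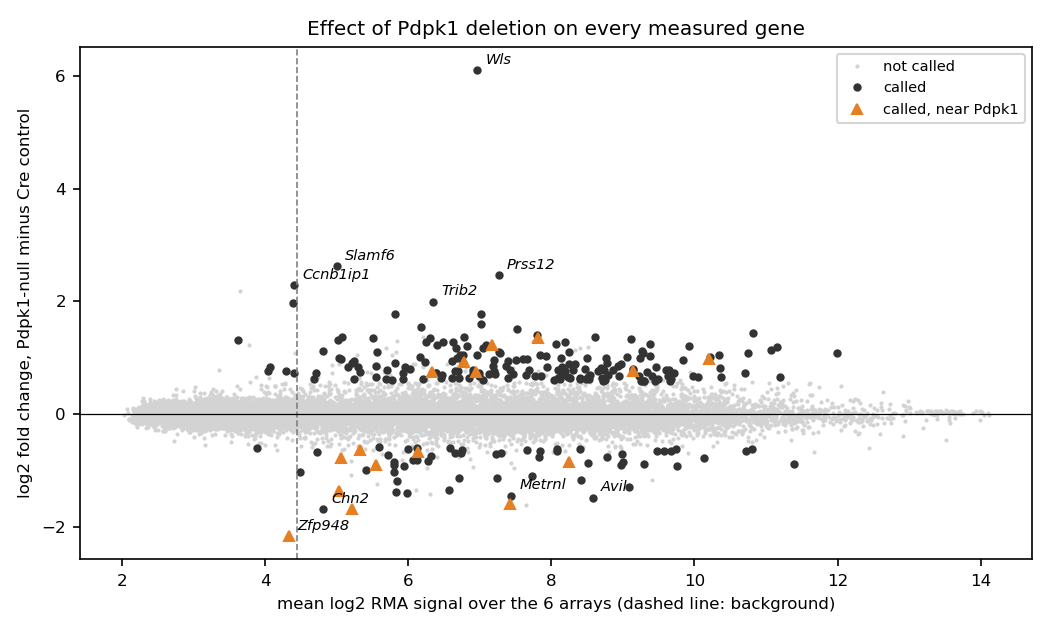
Log2 fold change of each of the 18193 genes against its mean log2 RMA signal over the 6 arrays, with called genes in black, called genes within 200 measured genes of Pdpk1 as orange triangles and the background level as a dashed line. Wls stands alone at 6.10, and most genes lie close to 0 at all signals.

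Pdpk1 mRNA itself was alike in the groups by both of its probe sets. One gave 8.96, 9.03 and 8.96 on Cre control arrays 1 to 3 and 9.05, 8.95 and 9.09 on Pdpk1-null arrays 1 to 3, a log2 fold change of 0.05 with a 95% interval of -0.11 to 0.21. The other gave -0.04, with an interval of -0.19 to 0.11. The groups overlapped on either probe set. Which exons these probe sets read is not given in the sources used here, so the values do not check the genotype labels.

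Markers of the labelled cell type were present. All 11 measured genes of a CTL list, among them Cd3d, Cd8b1, Gzmb (granzyme B) and Prf1 (perforin), were above background on all 6 arrays and 0 of 11 passed the test. Prf1 had 11.82, 12.28 and 11.92 in control and 10.89, 11.64 and 11.47 in Pdpk1-null CTL, a difference of -0.67 (standard error 0.194, adjusted p = 0.140). Gzmb differed by -0.11 (standard error 0.0657, adjusted p = 0.511). The groups did not overlap in Prf1 or in Gzmb, but neither gene passed.

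Markers of other cells were present in part. Of 15 B cell genes 6, of 15 myeloid genes 7 and of 8 erythroid and platelet genes 3 were above background in a group. So were 6 of 9 mast cell and basophil, 7 of 11 dendritic and 6 of 10 stroma genes. Among lymphocyte lists it was 5 of 7 natural killer, 7 of 8 CD4 and regulatory T cell and 3 of 4 gamma delta genes. Ms4a1, Foxp3 and Ncr1, which define B cells, regulatory T cells and natural killer cells, were below it in both groups. Over the 6 arrays the natural killer list summed to log2 11.4 to 11.74 and the CTL list to 15.46 to 15.57. The summed signal of the myeloid list was higher on the Pdpk1-null arrays (log2 9.42 to 9.46) than on the control arrays (9.07 to 9.18), and that of the CD4 and regulatory T cell list was 10.09 to 10.29 against 9.65 to 9.84. Without Ctla4 the sum of the latter overlapped, at 8.90 to 9.01 against 8.81 to 8.996. Fcgr3, a low-affinity IgG receptor, was the 1 myeloid gene of 15 that passed, with 6.27, 6.67 and 6.00 in control and 7.32, 6.93 and 7.42 in null CTL (adjusted p = 0.0486, and 0.157 without Pdpk1-null replicate 3). Ctla4 was the 1 of 8 in the other list. The natural killer list held 1 gene of 7 that passed, the lectin receptor Klre1 (0.80, adjusted p = 0.0462, and 0.162 without Cre control replicate 2), while Fcer1g, a signalling chain of the same list, had -0.56. The lists of B cells (15 measured), mast cells and basophils (9), dendritic cells (11), gamma delta T cells (4), erythroid cells and platelets (8) and stroma (10) held 0 called genes, as did 5 sex-linked genes. Igha, an immunoglobulin heavy chain gene of plasma cells outside the B cell list, rose by 0.69, with 6.32, 5.87 and 6.20 in control and 6.91, 6.75 and 6.79 in null CTL (adjusted p = 0.0290, and 0.0979 without Pdpk1-null replicate 1). It was chosen after its values were seen, and its probe set may share signal with similar genes. The summed signal of the gamma delta list was 9.58 to 9.80 on null and 9.02 to 9.38 on control arrays. The part of other cell types in the changes below was not tested.

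The largest rises included genes under background in control CTL and genes that were already bright. Wls, the carrier that brings Wnt proteins to the cell surface, had 3.72, 3.85 and 4.16 on the control arrays, under background, and 9.42, 10.16 and 10.45 on the Pdpk1-null arrays. Slamf6, a self-binding receptor of the SLAM family on lymphocytes, had 3.89, 3.61 and 3.57 in control and 6.94, 5.69 and 6.33 in null CTL, a rise of 6.19-fold (2.63 on the log2 scale, standard error 0.266, adjusted p = 0.00401). These groups were far apart in each gene, and 3 of 4 Wls and 2 of 3 Slamf6 probe sets passed. Trib2, a pseudokinase of the Tribbles family, had 5.84, 5.07 and 5.13 in control and 7.82, 6.64 and 7.58 in null CTL (2.00, standard error 0.308, adjusted p = 0.0203). Ripor2, an inhibitor of the GTPase RhoA, had 6.99, 6.48 and 6.82 in control and 8.52, 7.82 and 8.49 in null CTL (1.51, standard error 0.197, adjusted p = 0.0113), and all 4 of its probe sets rose. Ifi209, an interferon-inducible gene of the PYHIN family, had 10.21, 9.85 and 10.22 in control and 11.51, 11.43 and 11.67 in null CTL (1.44, standard error 0.115, adjusted p = 0.00137). Pdpk1-null replicate 2 was the lowest of its group in Slamf6, Trib2, Ripor2 and Ifi209, though still above all control arrays.

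Further large rises included the gut homing receptor Gpr15 (1.97, adjusted p = 0.0444), Ccnb1ip1, a ubiquitin ligase of meiotic recombination (2.29, adjusted p = 0.00143), the Rab11 exchange factor Sh3bp5 (1.40, adjusted p = 0.0186), and the predicted genes Gm11346 (1.77, adjusted p = 0.0262) and Gm8369 (1.54, adjusted p = 0.0192). The protease Prss12 rose by 2.47. With 1 array left out the adjusted p reached 0.0934 for Trib2, 0.156 for Gpr15 and 0.0563 for Ripor2 (each without Cre control replicate 3), 0.0979 for Gm11346 (without Cre control replicate 2), and 0.0792 for Gm8369 and 0.0757 for Sh3bp5 (each without Pdpk1-null replicate 3). The calls of Wls, Slamf6, Prss12, Ccnb1ip1 and Ifi209 held in each case.

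Falls were fewer than rises, with a median size close to theirs (-0.82 against 0.83). Chn2, which encodes beta2-chimaerin, a GTPase activating protein for Rac, had 5.96, 5.85 and 5.16 in control and 3.76, 3.93 and 4.22 in null CTL (-1.69 on the log2 scale, standard error 0.206, adjusted p = 0.00865), and all null arrays were under background. Avil, the actin-binding protein advillin, had 9.15, 9.73 and 9.08 in control and 7.54, 7.88 and 8.09 in null CTL (-1.48, standard error 0.190, adjusted p = 0.0107). Metrnl, a secreted protein related to meteorin, had 8.12, 8.31 and 8.05 in control and 6.92, 6.50 and 6.73 in null CTL (-1.45, standard error 0.117, adjusted p = 0.00143). In each the lowest control array was well above the highest null array, and these calls held without any 1 array. Ppp2r2c, a regulatory subunit of protein phosphatase 2A, had 7.13, 7.40 and 7.18 in control and 5.66, 6.22 and 5.81 in null CTL (-1.34, standard error 0.142, adjusted p = 0.00506). Pag1, a membrane adaptor that recruits the inhibitory kinase Csk, had 9.10, 8.94 and 8.96 in control and 7.69, 8.10 and 7.71 in null CTL (-1.17, standard error 0.117, adjusted p = 0.00375).

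Of the remaining leading falls, Tnfrsf21 (-1.40), Mtm1 (-1.29) and Klhl30 (-1.13) held whichever array was left out. S1pr3 (-1.38, adjusted p = 0.0444), Coch, the extracellular protein cochlin (-1.18, adjusted p = 0.0479), and Jdp2, a repressor of the AP-1 family (-1.14, adjusted p = 0.0167), did not, with adjusted p up to 0.163 and 0.148 (each without Cre control replicate 2) and 0.078 (without Cre control replicate 3). Zfp948, Zfp994 and Zfp52, which fell too, lie near Pdpk1 and are described with its neighbours.

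**Figure D2:**
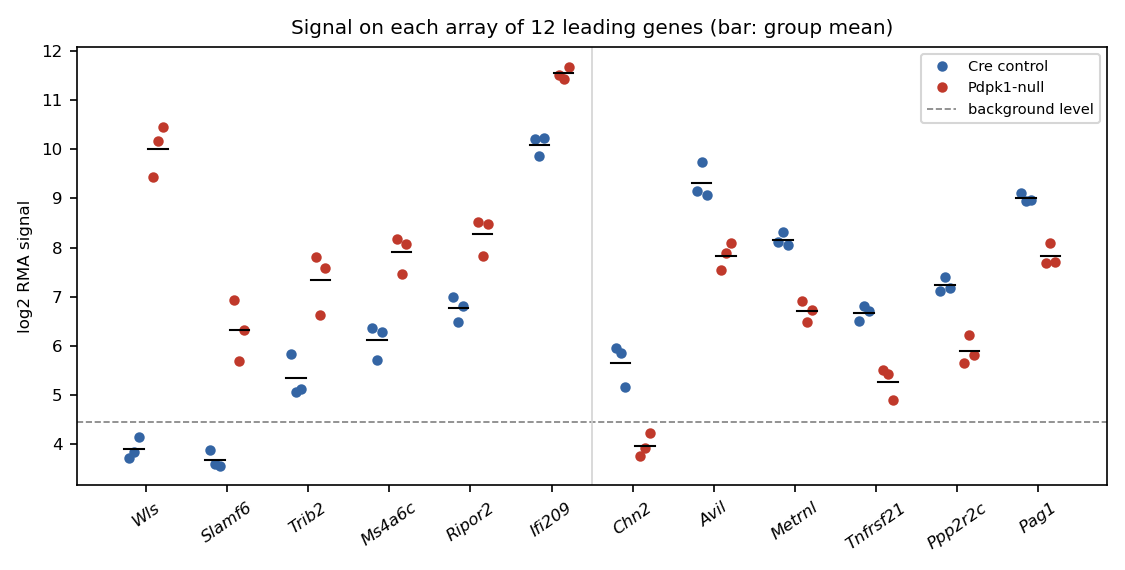
Log2 RMA signal on each of the 3 Cre control (blue) and 3 Pdpk1-null (red) arrays for 6 genes that rose and 6 that fell, with bars at the group means and the background level dashed. The groups do not overlap in any of the 12 genes, and Wls and Slamf6 lie under background in all control arrays.

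In 12 genes that rose the control mean was under background and the Pdpk1-null mean above it, and in 6 genes that fell the order was the opposite. The 12 include Wls, Slamf6, Ccnb1ip1, Gpr15, Tnfrsf14 (1.37) and Zc3h12d (1.32), an RNA-binding protein of the regnase family, the last chosen after its values were seen. Chn2 and Cth, an enzyme of cysteine synthesis (-1.02, with adjusted p up to 0.113 without Cre control replicate 3), were among the 6, and 3 of the 6 were the neighbours Zfp948, Zfp994 and Baiap3 of Pdpk1. Where a group is under background, the size of the change is not exact.

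Genes known as forkhead targets in T cells were the list with the most rises. Of 29 measured, 9 rose and 0 fell, against 1.00% and 0.352% of all genes, shares that stand beside each list below as well. With falls this rare, 0 falls among 29 is not a result about these genes. The median over the 27 above background was 0.39, and 25 of 29 were higher in null CTL on average. Klf2, a transcription factor that maintains quiescence and lymph node homing, had 6.16, 5.75 and 6.40 in control and 7.93, 6.83 and 7.65 in null CTL (1.37, standard error 0.269, adjusted p = 0.0468). Ccr7, the receptor that guides T cells into lymph nodes, had 6.71, 5.55 and 6.43 in control and 8.14, 7.59 and 7.74 in null CTL (1.59, standard error 0.273, adjusted p = 0.0296). Il7r, the alpha chain of the IL-7 receptor, had 8.08, 7.47 and 8.25 in control and 9.32, 9.31 and 9.28 in null CTL (1.37, standard error 0.176, adjusted p = 0.0107). The null arrays were close together in Il7r and spread by more than 1 in Klf2. The other called members were Trib2, the transcriptional repressor Bach2 (1.105), the PI3K inhibitor Pik3ip1 (0.97), Ctla4, the cell cycle inhibitor Cdkn1b and the cyclin Ccng2 (0.80). Bach2 had 6.73, 6.62 and 6.79 in control and 7.85, 7.60 and 8.004 in null CTL, and its call held without any array (adjusted p = 0.00373 with all).

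The count of 9 forkhead targets was 7, 4 and 3 without Cre control replicates 1, 2 and 3, and 3, 10 and 2 without Pdpk1-null replicates 1, 2 and 3. The adjusted p reached 0.163 for Klf2 and 0.151 for Pik3ip1 without Cre control replicate 2, 0.0932 for Ccr7 and 0.0518 for Il7r without Pdpk1-null replicate 3, 0.0889 for Cdkn1b and 0.0705 for Ccng2 without Cre control replicate 3. The list holds genes, Klf2, Il7r and Ccr7 among them, that the study took up on these samples, so its direction is not independent evidence.

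Of 46 cell cycle genes measured, 2 rose and 0 fell. The median was 0.18, 34 were higher on average, and 11 were higher and 3 lower at an unadjusted p under 0.05, against 8.21% and 9.01% of all genes. Cdc25b, a phosphatase that activates cyclin-dependent kinases, had 6.19, 6.14 and 6.22 in control and 7.40, 7.03 and 7.13 in null CTL (1.00, standard error 0.0989, adjusted p = 0.00373). Cdkn1b, which encodes the inhibitor p27, had 8.05, 7.80 and 7.80 in control and 8.89, 8.47 and 8.95 in null CTL (0.88, standard error 0.134, adjusted p = 0.0192). An activator and an inhibitor of cell cycle kinases were thus the called pair, and the groups overlapped in neither. Of 44 DNA replication genes 0 passed, and 43 had an interval within 1.5-fold. Orc2, a subunit of the origin recognition complex, had the largest difference of this list (-0.39, adjusted p = 0.0467) and stayed under the fold minimum.

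Lists of protein synthesis and folding held few calls, and their members differed by small amounts. Of 42 ribosome biogenesis genes 0 passed, but 40 were lower on average and 26 had an unadjusted p under 0.05 in that direction, against 9.01% of all genes. Their median was -0.19 and 40 of 42 had an interval within 1.5-fold. Noc2l, a nucleolar protein, had the largest difference, with 8.40, 8.45 and 8.61 in control and 8.23, 8.02 and 8.05 in null CTL (-0.39, standard error 0.0885, adjusted p = 0.0758). Nop16 had 9.13, 9.21 and 9.17 against 8.75, 8.95 and 8.65 (-0.39, adjusted p = 0.0774). Of 35 aminoacyl-tRNA synthetases 0 passed and 16 were lower at an unadjusted p under 0.05, with a median of -0.14, and Aars, the alanyl enzyme, had 9.41, 9.46 and 9.43 in control and 8.71, 8.99 and 9.02 in null CTL (-0.53, adjusted p = 0.0314). Groups did not overlap in Noc2l, Nop16 or Aars.

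The endoplasmic reticulum stress list behaved alike, with 0 of 27 called, 25 lower on average, 16 lower at an unadjusted p under 0.05 and a median of -0.23. Ero1a, the oxidase that drives disulphide formation, had 11.01, 11.19 and 11.07 in control and 10.39, 10.79 and 10.71 in null CTL (-0.46, standard error 0.112, adjusted p = 0.0882). Creld2 had -0.38 (adjusted p = 0.156). Of 76 mitochondrial ribosomal proteins 0 were called, all 76 had an interval within 1.5-fold and the median was -0.08. Of 83 genes of oxidative phosphorylation 0 were called (median -0.04), of 47 proteasome genes 0 (median -0.10) and of 44 cytosolic ribosomal proteins 0 (median 0.03, with 39 higher on average). Of 57 translation factors, 1 rose, the cap-binding protein Eif4e3, by 1.505-fold (0.59, adjusted p = 0.0228). Its call was lost when any Cre control array, Pdpk1-null replicate 1 or Pdpk1-null replicate 2 was left out. The adjusted p reached 0.0813 (without Cre control replicate 2).

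Sterol synthesis was the pathway list with the lowest median, -0.41 against -0.01 over all genes. The study had already reported lipid and cholesterol terms as overrepresented among genes controlled by PDK1 on these samples. The rank of this list is therefore not independent evidence. Of 20 measured genes 3 fell and 0 rose, and 17 were lower at an unadjusted p under 0.05. Hmgcs1, the cytosolic HMG-CoA synthase that feeds the mevalonate pathway, had 11.79, 11.95 and 11.78 in control and 10.92, 10.95 and 11.00 in null CTL, a fall of 1.85-fold (-0.88, standard error 0.0732, adjusted p = 0.00152) that all 5 of its probe sets shared. Fdps, which makes farnesyl diphosphate, had 10.99, 11.23 and 11.13 in control and 10.56, 10.55 and 10.41 in null CTL (-0.61, standard error 0.0851, adjusted p = 0.0146). Hsd17b7, a later enzyme of cholesterol synthesis, had -0.65 (adjusted p = 0.0343). Each null array was below each control array in Hmgcs1, Fdps and Hsd17b7. Left-out arrays raised the adjusted p to 0.068 for Fdps (Cre control replicate 3) and 0.118 for Hsd17b7 (Cre control replicate 2), and the count of 3 was 1 without either Cre control replicate 2 or null replicate 3 and 2 without Cre control replicate 1, Cre control replicate 3 or null replicate 1, and 4 without null replicate 2. Among 19 genes of fatty acid synthesis and desaturation, Fads3 (-0.85, adjusted p = 0.0228) and the desaturase Scd1 (-0.77, adjusted p = 0.0300) fell and 0 rose, with adjusted p up to 0.0904 and 0.0961 without Cre control replicates 2 and 1. The cholesterol exporter Abca1 rose by 0.60 (adjusted p = 0.0306, and 0.121 without Cre control replicate 3), the 1 call among 45 ABC transporters.

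Promoters of 3 changed genes are shown as examples of a window that holds the motif searched. RefSeq promoters of build GRCm38.p6, 250 bases before to 50 after a gene's start, were at hand for 145 genes that rose and 51 that fell, and were searched on both strands. The sterol response letters TCACCCCAC stood in 0.551% of all listed promoters and in those of 0.678% of 14452 measured genes, in 2 of the 145 (Camk1d and Kcnj8) and in 1 of the 51, Hmgcs1. The forkhead letters TGTTTAC stood in 3.65% of promoters and 3.40% of genes, in 7 of the 145 (4.83%), Ltb among them, and in 0 of the 51. Of the 9 called forkhead targets, 8 had a listed promoter and 0 of these held the letters. The STAT letters TTCNNNGAA stood in 8.30% of promoters and 8.57% of genes, in 15 of the 145 (10.3%), among them Il7r, Bach2, Il18r1 and Socs3, and in 5 of the 51 (9.80%). The letters CACGTG (an E-box, in 7.15% of promoters and 10.2% of genes) were held by 13 of the 145 (8.97%) and 7 of the 51 (13.7%), TGATGNAA (the ATF4 composite site, in 3.97% and 3.24%) by 5 and 2, and TGACGTCA (the cyclic AMP response element, in 1.79% and 2.92%) by 1 and 2. A match describes these letters and not binding. The windows run 5′ to 3′ on the gene's strand, with the match in capitals.
Hmgcs1, chr13:119690101-119690400, plus strand, sterol response letters: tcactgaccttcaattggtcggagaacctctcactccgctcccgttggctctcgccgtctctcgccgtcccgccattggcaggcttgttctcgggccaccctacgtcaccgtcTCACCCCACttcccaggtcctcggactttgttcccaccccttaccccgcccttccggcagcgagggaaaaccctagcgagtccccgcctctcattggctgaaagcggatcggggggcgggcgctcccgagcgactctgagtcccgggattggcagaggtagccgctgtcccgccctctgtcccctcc
Ltb, chr17:35194257-35194556, plus strand, forkhead letters read on the opposite strand: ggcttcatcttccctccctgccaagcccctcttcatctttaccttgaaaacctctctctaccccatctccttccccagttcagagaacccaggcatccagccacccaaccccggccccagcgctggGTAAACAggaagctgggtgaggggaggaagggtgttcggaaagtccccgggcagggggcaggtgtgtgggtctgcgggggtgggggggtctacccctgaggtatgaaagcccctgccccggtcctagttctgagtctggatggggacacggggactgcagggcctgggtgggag
Socs3, chr11:117969317-117969616, minus strand, STAT letters: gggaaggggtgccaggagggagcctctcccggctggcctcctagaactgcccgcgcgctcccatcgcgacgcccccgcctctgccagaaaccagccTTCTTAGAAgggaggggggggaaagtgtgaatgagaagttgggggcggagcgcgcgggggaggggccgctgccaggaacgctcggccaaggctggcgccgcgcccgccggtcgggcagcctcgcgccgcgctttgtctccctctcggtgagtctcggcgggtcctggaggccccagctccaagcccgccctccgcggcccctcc

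Of 40 genes of antigen receptor signalling 4 rose and 0 fell, against 1.00% and 0.352% of all genes. Their median was 0.05, and 25 were higher and 15 lower on average. Dgka, which removes the second messenger diacylglycerol, had 9.38, 9.11 and 9.45 in control and 10.63, 10.24 and 10.72 in null CTL, a rise of 2.32-fold (1.22, standard error 0.138, adjusted p = 0.00689). Ctla4, an inhibitory receptor, had 8.46, 8.45 and 8.66 in control and 9.52, 9.25 and 9.49 in null CTL (0.90, standard error 0.0973, adjusted p = 0.00568). Lag3, another inhibitory receptor, had 7.33, 7.66 and 7.92 in control and 8.65, 8.69 and 8.54 in null CTL (0.99, standard error 0.138, adjusted p = 0.0146). The fourth was Sh2d1a, the adaptor SAP of SLAM receptors (0.68, adjusted p = 0.0197). The calls of Dgka and Ctla4 held without any array, while those of Lag3 (adjusted p = 0.0625 without Cre control replicate 2) and Sh2d1a (0.0749 without Cre control replicate 3) did not. Of 9 genes listed for the SLAM family 2 rose, Slamf6 and Sh2d1a. Cd84, a receptor of the family that the list left out, rose as well, with 7.88, 7.82 and 7.72 in control and 8.52, 8.32 and 8.47 in null CTL (0.63, adjusted p = 0.0107, and 0.0528 without Cre control replicate 3). Slamf7 had -0.53 (adjusted p = 0.0257) and Cd244a -0.66 (adjusted p = 0.0779). Cd84, Slamf7 and Cd244a were chosen after their values were seen.

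Around PI3K, PDK1 and the AGC kinases, 3 of 37 rose and 0 fell. Pik3r5, a regulatory subunit of the G protein coupled PI3K, had 7.69, 7.79 and 7.93 in control and 8.71, 8.59 and 8.80 in null CTL (0.89), and Prkcb, which encodes a protein kinase C, had 0.79. Pik3ip1 was the third. Among 47 enzymes of phosphoinositides and phospholipids, Dgka and the phosphatase Mtmr3 (0.77, adjusted p = 0.0388, and 0.147 without Cre control replicate 2) rose and the related phosphatase Mtm1 fell. Of 22 survival kinases and their relatives 3 rose, Trib2, Pim2 (1.05) and Camk1d (0.94). Pim2, a kinase induced by IL-2, had 9.85, 9.75 and 9.86 in control and 11.15, 10.44 and 11.01 in null CTL (standard error 0.165, adjusted p = 0.0217), with Pdpk1-null replicate 2 lowest of its group. The adjusted p reached 0.0922 for Pim2 and 0.0704 for Camk1d, each without Cre control replicate 2.

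IL-2 and STAT5 response genes rose in 2 of 24 and fell in 0, with Socs3, a feedback inhibitor of cytokine receptors, beside Pim2. Socs3 had 7.71, 7.47 and 7.40 in control and 8.56, 8.06 and 8.46 in null CTL (0.83, standard error 0.139, adjusted p = 0.0271, and 0.116 without Cre control replicate 3). Among 46 cytokine receptor chains, Il7r and Il18r1 rose and Il12rb2 fell. Il12rb2, the signalling chain of the IL-12 receptor, had 9.23, 9.07 and 9.19 in control and 8.48, 8.43 and 8.31 in null CTL (-0.76, standard error 0.0789, adjusted p = 0.00468), held whichever array was left out. Il18r1, a chain of the IL-18 receptor, had 8.43, 7.87 and 8.49 in control and 9.51, 9.01 and 9.26 in null CTL (1.00, adjusted p = 0.0356, and 0.114 without Pdpk1-null replicate 3). Receptor chains for IL-12 and IL-18, cytokines that induce interferon gamma in T cells, thus moved in opposite directions.

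Transcription factors of T cells and of the KLF, IRF and STAT families gave 6 calls. Irf4, a factor of effector differentiation, had 7.49, 7.77 and 7.95 in control and 8.72, 8.55 and 8.46 in null CTL (0.84, standard error 0.122, adjusted p = 0.0169). Irf8, a related factor, had 10.02, 10.48 and 10.13 in control and 9.16, 9.52 and 9.21 in null CTL (-0.91, standard error 0.138, adjusted p = 0.0189). Stat4, the transducer of IL-12 signals, had 9.35, 9.34 and 9.35 in control and 10.30, 9.82 and 10.12 in null CTL (0.73, adjusted p = 0.0213). Irf4 and Irf8, which bind similar DNA elements, had opposite directions and no overlap between groups. Klf2, Klf6 (0.60, adjusted p = 0.00581) and Bach2 also rose, which made 3 rises and 1 fall among 37 T cell factors and 2 rises among 16 KLF factors. The adjusted p reached 0.0693 for Irf4 (without Cre control replicate 2), 0.0777 for Irf8 (without Pdpk1-null replicate 3) and 0.0895 for Stat4 (without Cre control replicate 3), and Klf6 went under 1.5-fold without Pdpk1-null replicate 1. Of 17 NF-kB factors and inhibitors 0 passed. Tnfaip3, the inhibitor A20, had 0.54 (adjusted p = 0.0180) and Nfkbiz 0.69 (adjusted p = 0.116).

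Receptors and ligands of the TNF family gave 6 calls, 3 rises and 1 fall among 25 receptors and 2 rises among 14 ligands. Tnfrsf22 and Tnfrsf23, decoy receptors for TRAIL that lie side by side on chromosome 7, rose by 1.05 and 1.27. Tnfrsf23 had 5.92, 5.92 and 5.73 in control and 7.07, 7.04 and 7.29 in null CTL (standard error 0.0924, adjusted p = 0.000785), and Tnfrsf22 had 6.17, 6.24 and 6.31 in control and 7.27, 7.21 and 7.39 in null CTL. The calls of this pair of neighbours held without any array. Tnfrsf21, the death receptor DR6, had 6.51, 6.81 and 6.72 in control and 5.504, 5.44 and 4.90 in null CTL, a fall of 2.64-fold (-1.40, standard error 0.160, adjusted p = 0.00692). Tnfrsf14, the receptor HVEM, rose by 1.37 (adjusted p = 0.0115, and 0.0635 without Cre control replicate 3). Among the ligands, Ltb, which forms lymphotoxin with its alpha chain, had 10.67, 10.23 and 10.76 in control and 11.96, 11.51 and 11.76 in null CTL (1.20, standard error 0.156, adjusted p = 0.0115, and 0.0548 without Pdpk1-null replicate 3). Tnfsf4, the ligand of OX40, rose by 0.69 (adjusted p = 0.0228, and 0.102 without Cre control replicate 3). Ltb and Tnfrsf21 lie on chromosome 17, 313 and 381 measured genes from Pdpk1.

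Chemoattractant receptors moved both ways, with 4 rises and 1 fall among 30. Ccr7, the inflammatory homing receptor Cxcr3 (0.79), Cxcr4 (0.99) and the sphingosine phosphate receptor S1pr4 (0.65) rose, while S1pr3 fell. S1pr4 had 8.33, 8.42 and 8.41 in control and 9.13, 8.84 and 9.13 in null CTL (adjusted p = 0.0171), and S1pr3 had 6.42, 6.70 and 6.43 in control and 4.42, 5.58 and 5.42 in null CTL (standard error 0.267). Receptors for the same lipid thus differed in direction. None of the 5 calls held throughout: the adjusted p reached 0.165 for Cxcr3, 0.109 for Cxcr4 and 0.07 for S1pr4 without Cre control replicate 3. The chemokine Ccl5, the 1 call among 33 chemokines, rose by 0.98 (adjusted p = 0.0499, and 0.168 without Cre control replicate 2). Among 29 killing and effector genes it was joined by the granzyme B inhibitor Serpinb9, which fell by 0.79 (adjusted p = 0.0245, and 0.092 without Pdpk1-null replicate 3).

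MS4A membrane proteins span the membrane with 4 segments and lie together on chromosome 19. Of the 17 measured 5 rose and 0 fell, against 1.00% and 0.352% of all genes, and the 5 were among the 7 above background. Ms4a6c had 6.37, 5.72 and 6.28 in control and 8.18, 7.47 and 8.06 in null CTL, a rise of 3.43-fold (1.78, standard error 0.216, adjusted p = 0.00864). Ms4a4c (1.18), Ms4a6b (1.13), Ms4a4b (1.09) and Ms4a6d (1.05) followed. Ms4a6b had 10.83, 10.04 and 10.62 in control and 11.69, 11.47 and 11.74 in null CTL (standard error 0.182, adjusted p = 0.0229). With Gm8369, which lies among them, 6 of 7 measured genes in a row rose. Cre control replicate 2 was the lowest control array in each of Ms4a6c, Ms4a6b and Gm8369. The calls of Ms4a6c and Ms4a4c held without any array, and the count of 5 was 2 without Cre control replicate 3 and 3 without Pdpk1-null replicate 1 or 3, with adjusted p up to 0.0911 for Ms4a6b and 0.0533 for Ms4a4b (without Pdpk1-null replicate 3) and 0.0705 for Ms4a6d (without Pdpk1-null replicate 1). Members are similar in sequence, and signal shared between them cannot be told apart.

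The Schlafen and GIMAP families leaned the same way, while the 46 cytokine receptor chains did not, with 23 higher and 23 lower on average. All 7 measured Schlafen genes were higher on average and 2 passed, Slfn1 (1.12, adjusted p = 0.0343) and Slfn2 (0.82, adjusted p = 0.0345), genes linked to T cell quiescence. Slfn2 had 10.21, 9.65 and 9.98 in control and 10.86, 10.55 and 10.88 in null CTL. All 8 GIMAP GTPases, lymphocyte proteins of survival, were higher on average with a median of 0.28 and 6 at an unadjusted p under 0.05 against 8.21% of all genes, and Gimap7 passed, with 10.13, 9.88 and 10.12 in control and 10.81, 10.67 and 10.61 in null CTL (0.65, adjusted p = 0.0158). The adjusted p reached 0.122 for Slfn1 (without Pdpk1-null replicate 3), 0.121 for Slfn2 (likewise without Pdpk1-null replicate 3, and as much without Cre control replicate 3) and 0.0557 for Gimap7 (without Cre control replicate 3). Gbp3, the 1 call among 10 immunity GTPases, rose by 0.78 (adjusted p = 0.0175, and 0.064 without Pdpk1-null replicate 3). Of 33 type I interferon response genes 0 passed. Ifi204 had 5.76, 5.02 and 5.05 in control and 6.06, 6.19 and 6.88 in null CTL (1.104, standard error 0.250, adjusted p = 0.0739).

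**Figure D3:**
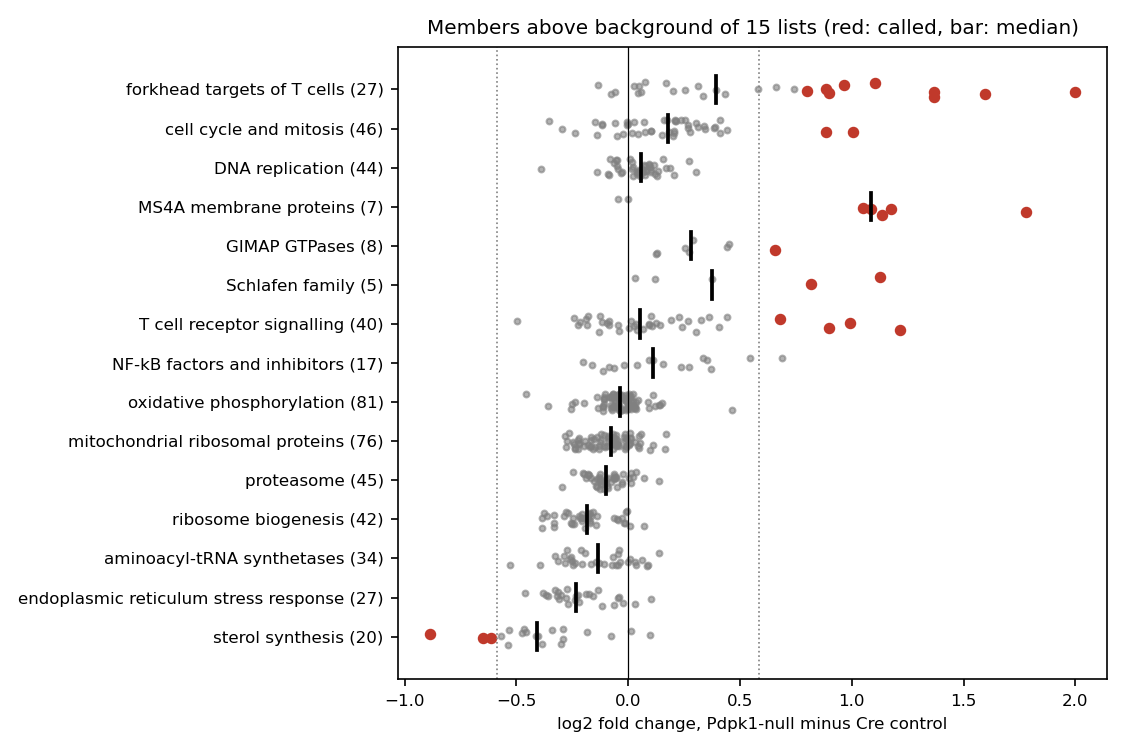
Log2 fold change of the members above background of 15 pathways and families, their number in brackets, with called members in red, list medians as black bars and the 1.5-fold limits dotted. Called members lie to the right except in sterol synthesis, and the medians of ribosome biogenesis, tRNA synthetases and endoplasmic reticulum stress lie left of 0 inside the limits.

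Purine receptors and adenosine enzymes gave 2 rises and 1 fall among 28 measured, with a median of -0.06 and 4 higher and 8 lower at an unadjusted p under 0.05. Nt5e, the enzyme CD73 that makes adenosine from AMP, had 7.64, 7.25 and 7.46 in control and 9.16, 8.28 and 8.62 in null CTL, a rise of 2.36-fold (1.24, standard error 0.202, adjusted p = 0.0243, and 0.103 without Cre control replicate 2). Dpp4, a peptidase also known as CD26 that binds adenosine deaminase, had 7.79, 7.44 and 7.88 in control and 8.63, 8.81 and 8.97 in null CTL (1.098, standard error 0.129, adjusted p = 0.00775), held by any 5 arrays. The adenosine receptor gene Adora3 fell by 0.83 (adjusted p = 0.0316, and 0.109 without Pdpk1-null replicate 3). Of 24 cyclic nucleotide phosphodiesterases, Pde4b rose by 0.63 (adjusted p = 0.0463) and Pde8a fell by 0.62 (adjusted p = 0.0316), with adjusted p up to 0.159 (without Cre control replicate 2) and 0.0998 (without Pdpk1-null replicate 3).

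Adhesion and the cytoskeleton gave scattered calls. Itgae, the CD103 chain that binds E-cadherin, had 7.26, 7.13 and 6.97 in control and 8.18, 8.15 and 7.97 in null CTL (0.98, standard error 0.0959, adjusted p = 0.00373). Itgav, the alpha chain of vitronectin receptors, had 11.06, 10.98 and 11.10 in control and 10.14, 10.59 and 10.46 in null CTL (-0.65, standard error 0.113, adjusted p = 0.0318, and 0.127 without Cre control replicate 3). These alpha chains moved in opposite directions, and the remaining 27 of 29 integrin genes did not pass by their brightest probe sets. Itga4, another alpha chain, had 0.90 by its brightest (adjusted p = 0.0889). Less bright probe sets of Itga4 passed, at 0.67 (adjusted p = 0.0422) and 1.12 (adjusted p = 0.01275). Itga4 was chosen after its values were seen. Among 30 gelsolin and actin regulators, Avil and gelsolin itself (Gsn, -0.66, adjusted p = 0.0366, and 0.115 without Cre control replicate 3) fell, and 4 of 6 Gsn probe sets passed. Of 25 S100 and annexin genes Anxa3 fell by 0.93 (adjusted p = 0.0316, and 0.124 without Cre control replicate 2).

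The calls among glycan enzymes and transporters stand beside 1.35% of all genes called. Among 107 genes of glycan synthesis, the sialyltransferases St3gal6 (0.77) and St8sia4 (0.79) and B3gnt5 (1.01) rose and B4galnt2 (-0.85) fell. St3gal6 had 7.82, 7.77 and 7.83 in control and 8.71, 8.52 and 8.48 in null CTL (standard error 0.0804, adjusted p = 0.00476) and kept its call without any array, while 1 of its 5 probe sets passed. The adjusted p reached 0.0689 for St8sia4 and 0.162 for B4galnt2 without Cre control replicate 3 and 0.0515 for B3gnt5 without Pdpk1-null replicate 3. Of 150 channel genes 1 passed, Kcnj8, a subunit of the ATP-sensitive potassium channel, with 5.83, 5.70 and 5.79 in control and 6.78, 6.56 and 6.75 in null CTL (0.92, standard error 0.0821, adjusted p = 0.00248). Of 359 solute carriers 2 rose and 2 fell, among them Slc16a10 (-1.09) and the myo-inositol transporter Slc5a3 (-0.69, adjusted p = 0.0275, and 0.109 without Cre control replicate 2). Of 94 Rab GTPases and regulators, Rab20 fell by 0.72 (adjusted p = 0.0416, and 0.150 without Cre control replicate 3).

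For the remaining pathways and families the share of all genes called was likewise 1.35%. Of 28 sphingolipid genes, S1pr4 and the lysosomal activator Psap (0.65) rose and the ceramide synthase Cers6 fell by 0.82 (adjusted p = 0.0229), the calls of Psap and Cers6 ending at adjusted p of 0.0913 and 0.103 without Cre control replicate 3. Psap was also the 1 call among 40 lysosome and autophagy genes. Of 97 proteases of the Prss, Mmp, Adam and Adamts families, Prss12 and Adamts6 (0.94, adjusted p = 0.0433, and 0.154 without Cre control replicate 3) rose. Of 86 receptors named Gpr or Adgr, Gpr15 rose and Adgrg3 fell by 0.61 (adjusted p = 0.00692), and Adgrg3 went under 1.5-fold without Pdpk1-null replicate 3.

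Amino acid synthesis and ATF4 targets had 2 falls of 32, Cth and Atf5 (-0.63), and 19 were lower at an unadjusted p under 0.05, with 26 lower on average and a median of -0.27. Glycolysis and glucose uptake had 1 fall of 19, Hk2 (-0.66), with 7 lower at that level and 18 lower on average. Single rises came from polyamines (Sat1 of 7), NRF2 targets (Glo1 of 21), the Wnt pathway (Wls of 36) and killer lectin receptors (Klre1 of 18), and single falls from fatty acid oxidation (Pparg of 27) and serpins (Serpinb9 of 39). Dyneins had Dnah8 higher and Dynlt1f lower of 28. Glo1, Dnah8 and Dynlt1f all lie near Pdpk1, where linked DNA cannot be told apart, and are described with its neighbours. The adjusted p reached 0.117 for Hk2 (without Cre control replicate 2), 0.0943 for Pparg and 0.172 for Atf5 (each without Cre control replicate 3). Of 34 immediate early and MAP kinase feedback genes 0 passed, and Phlda1, a gene induced by growth factors, had 7.60, 8.26 and 7.74 in control and 6.66, 7.33 and 7.02 in null CTL (-0.86, standard error 0.202, adjusted p = 0.0798). The groups did not overlap in Phlda1. With limma, 0 genes were called among 23 of the tricarboxylic acid cycle, 7 of the pentose phosphate pathway, 28 of nucleotide synthesis, 23 heat shock genes and chaperonins, 14 of MHC class I presentation, 33 of the BCL2 family and cell death, 25 p53 targets and 21 hypoxia genes. At an unadjusted p under 0.05 these lists held 0, 0, 4, 0, 0, 6, 7 and 5 genes that were higher and 4, 2, 5, 7, 1, 3, 2 and 5 that were lower. Likewise 0 were called among 19 RGS proteins, 41 kinesins, 9 galectins, 22 V-type ATPase subunits, 58 TRIM proteins, 24 dual specificity phosphatases and 69 listed histone methylation and deacetylation enzymes, with 2, 3, 0, 1, 4, 3 and 8 higher and 1, 1, 0, 6, 2, 5 and 7 lower at that level. Nsd3, a histone methyltransferase that the last list left out, rose by 0.59 (adjusted p = 0.0158, and 0.0715 without Cre control replicate 2), and was chosen after its values were seen. So were the V-type ATPase genes Atp6v0a1 and Atp6v0d2, which passed only by a probe set that is not their brightest. These probe sets had -0.72 (adjusted p = 0.0158) and 0.60 (adjusted p = 0.0177).

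Changed genes also stood side by side away from chromosome 17. Apart from the MS4A genes and the decoy receptors, Slfn1, Slfn2 and Ccl5 rose within 11 measured genes on chromosome 11, and Sat1, Acot9 and Prdx4 rose as 3 neighbours on chromosome X, the call of Sat1 ending at an adjusted p of 0.154 without Cre control replicate 3. Prdx4, a peroxiredoxin of the secretory pathway, had 7.45, 7.41 and 7.80 in control and 8.94, 8.92 and 8.65 in null CTL (1.28, adjusted p = 0.00354). St3gal6, Gpr15 and Cldnd1 rose within 4 measured genes on chromosome 16, and Ripor2, Gm11346 and Gpld1 within 11 on chromosome 13. Prdx4, Sat1, Acot9, Cldnd1 and Gpld1 were chosen here for their places, after their values were seen.

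The floxed Pdpk1 allele and the DNA inherited with it differ between the groups together, so an effect of the lost kinase and one of linked DNA cannot be told apart for genes beside it. Of 329 measured genes within 200 places of Pdpk1 on chromosome 17, of which 129 lie on the side of lower coordinates before the chromosome ends, 16 changed (4.86%), 7 higher and 9 lower. On other chromosomes 222 of 17305 changed (1.28%), and on the rest of chromosome 17 it was 7 of 509 (1.38%). Falls made up 9 of 16 calls near Pdpk1 and 53 of 222 on other chromosomes. Within 50 places the count was 8 of 100, with 7 of them lower.

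Several of these falls were of zinc finger genes. Zfp948 had 5.37, 5.48 and 5.39 in control and 2.96, 3.43 and 3.38 in null CTL, under background (-2.16, standard error 0.123, adjusted p = 0.000202). Zfp994 had 6.00, 6.05 and 6.11 in control and 4.46, 4.27 and 4.40 in null CTL (-1.68, standard error 0.0754, adjusted p = 6.94e-05). Zfp52 had 8.16, 8.40 and 8.09 in control and 6.21, 6.78 and 6.87 in null CTL (-1.60, standard error 0.168, adjusted p = 0.00476). With Zfp943 (-0.67), Zfp213 (-0.78), the membrane receptor gene Paqr4 (-0.63) and Zfp760, which rose by 0.93, they lie within 28 measured genes, 15 to 42 places from Pdpk1. All 6 called genes among 331 named Zfp are of this stretch. The calls of Zfp948, Zfp994, Zfp52, Zfp943 and Paqr4 held without any array, and those of Zfp213 and Zfp760 ended at adjusted p of 0.102 (without Cre control replicate 3) and 0.0515 (without Pdpk1-null replicate 3).

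Other changed neighbours were spread over the window. Baiap3, an exocytosis factor 54 places away, had 5.83, 5.68 and 5.64 in control and 4.499, 4.30 and 4.27 in null CTL (-1.36, standard error 0.0886, adjusted p = 0.000487). Dnah8, an axonemal dynein chain, had 7.13, 7.04 and 7.26 in control and 8.74, 8.56 and 8.18 in null CTL (1.35, standard error 0.136, adjusted p = 0.00393). Glo1, the glyoxalase that detoxifies methylglyoxal, had 9.75, 9.73 and 9.67 in control and 10.72, 10.69 and 10.68 in null CTL (0.98, standard error 0.0640, adjusted p = 0.000487), and lies 2 places from Dnah8. Tmem181a (1.22), Tmem242 (0.77) and Cpne5 (0.74) rose too, and these 6 calls held without any array. Crebrf rose by 0.74 and Dynlt1f fell by 0.90, with adjusted p up to 0.087 (without Cre control replicate 2) and 0.064 (without Cre control replicate 3).

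Probe sets of one gene gave different calls more often in this region than elsewhere. Of 151 neighbours with several probe sets, 9 (5.96%) had a called probe set beside a brightest one that was not called, against 51 of 8845 (0.577%) among all other placed genes. Gfer, an oxidase of the mitochondrial intermembrane space, was the 1 gene of the array with calls in both directions, -0.84 by its brightest probe set and 1.11 by the other. The brighter one had 8.57, 8.68 and 8.74 in control and 7.87, 7.72 and 7.86 in null CTL, and the other had 6.91, 6.87 and 6.96 in control and 8.04, 7.87 and 8.17 in null CTL. Pim1, a survival kinase of the IL-2 response 159 places from Pdpk1, had 9.72, 9.76 and 9.76 in control and 10.00, 10.06 and 10.11 in null CTL by its brightest probe set (0.31, adjusted p = 0.0602). Its other probe set had 6.95, 7.18 and 6.997 in control and 9.07, 8.83 and 9.02 in null CTL (1.93, standard error 0.0930, adjusted p = 7.94e-05). The groups were apart in each probe set, but the sizes of the differences were not alike. Pim1 was chosen after its values were seen.

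**Figure D4:**
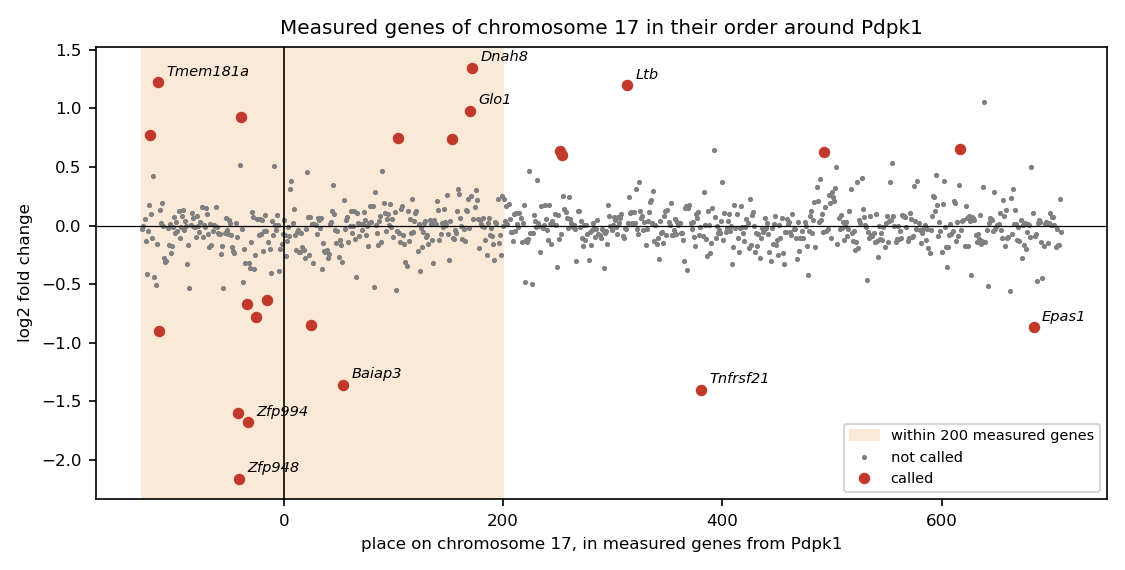
Log2 fold change of the 839 measured genes of chromosome 17 placed by their order, counted in measured genes from Pdpk1 at 0, with called genes in red and the shaded window reaching 200 genes on each side or the chromosome's end. Called genes are densest in the window, where 16 of 329 were called, and Ltb, Tnfrsf21 and Epas1 lie outside it.

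Outside the window 7 further genes of chromosome 17 changed. Besides Ltb and Tnfrsf21 they were H2-Oa (0.64) and H2-DMa (0.60), which take part in loading of MHC class II, the acetyltransferase Kat2b (0.62), the xanthine oxidoreductase Xdh (0.66) and Epas1 (-0.86), which encodes the hypoxia factor HIF-2 alpha. Epas1 had 8.78, 9.25 and 8.82 in control and 7.85, 8.03 and 8.38 in null CTL. None of the calls of H2-Oa, H2-DMa, Kat2b, Xdh and Epas1 held throughout, with adjusted p up to 0.0621 (without Pdpk1-null replicate 3), 0.151 (without Cre control replicate 3), 0.105 (without Cre control replicate 2), 0.0895 (without Pdpk1-null replicate 3) and 0.116 (without Cre control replicate 2, and likewise without Pdpk1-null replicate 1).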

How the data were processed

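RNA of 6 CTL cultures, 1 mouse each, was read on mouse expression arrays. The authors summarised each array by robust multichip averaging in Expression Console 1.1, per the submitters' processing notes, and the deposited values are log2 signals of 45101 probe sets, of which 45037 were tested and 64 array controls left out. They were used without further normalization. The labels give no scan date or other batch. Groups were taken from the sample titles. The members and gene lists were chosen with earlier results of these data known.

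Probe sets were compared with limma 3.58.1 in R 4.3.3, with moderated variances over the 6 arrays and Benjamini-Hochberg adjustment over all probe sets, and the test was tried on simulated data. Python 3.11.15 with pandas 2.3.3, NumPy 2.4.6 and Matplotlib 3.10.9 made tables and figures. A single-gene permutation of 3 against 3 arrays cannot give a two-sided p under 0.1, so none was used. A gene was read by the brightest probe set that names it alone. Probe sets of families with near-identical copies (Zfp, Slfn, Ms4a, Tnfrsf22 and Tnfrsf23, Klr, Dynlt1) may share signal, and their values are uncertain. As background served the level that 95% of 78 olfactory and vomeronasal receptor probe sets stayed under on average. Genes were named as the largest changes in each direction, the called members of 86 lists (38 pathways, 37 families, 11 marker lists), the largest difference where none was called, and called genes within 200 measured genes of Pdpk1 in the gene order of RefSeq GRCm38.p6. The result of 1 family is not reported here. Others are said to be chosen after their values were seen. Promoter sequences are RefSeq's, and the motifs were chosen with results known. Alternatives were other fold minimums, rules for several probe sets, scalings, filters and windows, significance analysis of microarrays, a fit blocked on replicate number, and fits on 5 arrays.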

Additional observations from a re-analysis of the deposited data

How the results depend on the processing

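The count of 246 changed genes was 430 with no fold minimum and 76 with a 2-fold minimum, and 97 to 329 with 1 array left out. The count of 16 near Pdpk1 was 29 with no fold minimum, 6 with a 2-fold minimum, 9 within 100 genes on each side and 13 to 17 with 1 array left out. The replicate block gave 255 genes. The labels do not say whether same-numbered arrays were paired. Deviations of same-numbered arrays correlated at -0.011 to 0.0496 across probe sets, and those of other pairs at -0.074 to 0.041. With 3 arrays per group these values cannot tell whether arrays were paired. Another scaling, variance model, filter, probe set rule or significance analysis of microarrays gave 207 to 314 genes in all and 14 to 23 near Pdpk1. Among single genes, Gfer turned to 0.13 as the mean of its probe sets and to 1.11 by its most changed one. Of genes that were not called, 4 changed sign with 1 array left out, where their log2 fold changes ranged from -0.00184 to 0.146 (Gp9), from -0.00288 to 0.181 (Itga2b), from -0.0341 to 0.137 (Xist) and from -0.0185 to 0.0769 (Zbtb16). Genes under background have no exact fold change.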
